A study of Mus musculus with 18 samples.

Results

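This account concerns 39 genes of chromosomal DNA replication and of the entry into S phase in mouse regulatory T cells (Tregs), picked by name from the 50600 gene rows of a table of RNA-seq counts. Each of the 39 symbols matched a single row, and all 39 passed the filter on low counts in each comparison made. The smallest count of any of them in any sample was 25, for Gins2. The counts come from 18 samples of FACS-purified Foxp3+ Tregs of C57BL/6 mice, in 4 groups, and address how CD25, the α subunit of the IL-2 receptor, bears on the Treg transcriptome in the thymus and in the periphery. Thymic WT Tregs came from 5 samples of Foxp3/RFP reporter mice. Thymic CD25 KO Tregs came from 5 samples of CD25cKO mice, in which Foxp3-YFP/Cre excises exon 4 of floxed Il2ra, and which were given WT splenocytes as neonates to keep them free of autoimmunity. All of these thymic donors were 3 to 4 weeks old. Splenic CD25 KO Tregs came from 4 samples of CD25flox/Foxp3eGFP-Cre-ERT2/R26Y mice, induced with tamoxifen at 7 to 10 weeks of age and harvested 10 to 14 days afterwards. Splenic WT Tregs came from 4 samples of CD25 WT reporter controls, also given tamoxifen at 7 to 10 weeks and taken at the same interval. Per a figure legend of the study each sample is a separate mouse. Cre was driven from the Foxp3 locus in both models, so only cells that express Foxp3 delete Il2ra. Tissue, age, model and the date in the column headers of the counts changed together, and what this date marks is not stated. Within the thymus, the Foxp3 allele with its Cre and reporter changed with CD25 genotype. So did the neonatal transfer, which is stated for the CD25 KO mice only. Their parts in the thymic differences cannot be told apart from that of CD25.

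Before S phase, the origin recognition complex, Cdc6 and Cdt1 load the MCM2-7 helicase onto DNA. In S phase Cdc45 and the GINS complex turn the helicase on, polymerases α, δ and ε copy the strands on the PCNA clamp, and ligase 1 seals the lagging strand. E2F factors drive many of these genes when cyclin E and its kinase release them from the RB proteins, and IL-2 is a growth factor that sends activated T cells into this programme. In bulk RNA, fewer cells in S phase and less of the RNA per cell cannot be told apart.

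E2F sites are often found near the starts of such genes, so the promoters of the members were searched for the 8-letter forms TTTCCCGC, TTTCGCGC, TTTGCCGC and TTTGGCGC on both strands. The windows are from RefSeq (GRCm38.p6) and run from 250 bases before to 50 after a gene's start. Of the 31 members with a window, 13 held a form, or 41.9%, against 2.60% of 27025 genes and 2.26% of 32851 windows. Matches before the start were found in 8 members, and the matching stretches are printed here. Of these 8 genes, 2 (Mcm6 and Pola1) were higher in splenic CD25 KO Tregs, a share near the 8 of all 39 members that were higher there. Capitals mark the matches, and at Mcm5 and at the first site of Mcm6 a form on one strand overlaps a form on the other. Letters run 5′ to 3′ on the strand of the gene, in the order Orc1 (plus strand, chr4:108579394-108579453), Cdc6 (plus, chr11:98907987-98908046), Mcm5 (plus, chr8:75109332-75109391), Mcm6 (minus, chr1:128359735-128359825), Mcm7 (minus, chr5:138172015-138172074), Gins3 (plus, chr8:95633492-95633551), Pola1 (minus, chrX:93632260-93632319) and Rfc3 (minus, chr5:151651209-151651268).
Orc1: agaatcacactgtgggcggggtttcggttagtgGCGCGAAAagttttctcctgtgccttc
Cdc6: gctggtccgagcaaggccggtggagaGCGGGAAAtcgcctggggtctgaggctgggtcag
Mcm5: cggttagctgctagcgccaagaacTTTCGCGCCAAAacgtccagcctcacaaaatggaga
Mcm6: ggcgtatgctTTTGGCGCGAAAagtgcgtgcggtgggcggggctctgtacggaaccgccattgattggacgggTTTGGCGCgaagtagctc
Mcm7: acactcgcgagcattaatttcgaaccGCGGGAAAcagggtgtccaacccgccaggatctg
Gins3: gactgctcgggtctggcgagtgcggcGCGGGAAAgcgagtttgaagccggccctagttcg
Pola1: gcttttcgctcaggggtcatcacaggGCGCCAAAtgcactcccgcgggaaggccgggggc
Rfc3: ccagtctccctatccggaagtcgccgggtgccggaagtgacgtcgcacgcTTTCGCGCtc

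In the other 5 members with a form (Cdt1, Mcm3, Pold1, Pole2 and Lig1) the matches lay after the start. No form was found in the windows of E2f8, Mcm10, Rpa1 or Rpa2. These genes appear below among those whose CD25 KO over WT change passed in the spleen or differed between tissues. Mcm4, also among those, had no window. Genes that differed only between the WT groups of the tissues are not listed here. A list of 20 mitosis genes, 17 of them with a window, differed in its letters. The E2F forms were in 1 of those 17 genes and the cell cycle homology element TTTGAA in 12, or 70.6%, against 5 of the 31 members (16.1%) and 20.2% of all genes. The shorter CCAAT box (CCAAT) was common everywhere, in 58.1% of the members with a window, 88.2% of the mitosis genes and 41.1% of all genes. A match is a description of the letters only.

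The libraries of the thymus held 17239774 to 23993674 counts and those of the spleen 25258341 to 32639570, so that 3 counts were worth at most 0.174 CPM (counts scaled to the library total). Il2ra followed the labels, with 524.5 to 682.1 CPM in thymic WT, 488.4 to 538.6 in splenic WT and 167.7 to 208.2 in splenic CD25 KO Tregs. In thymic CD25 KO Tregs Il2ra was 104.9, 96.1 and 95.9 CPM in samples 1, 3 and 5, but 279.9 and 233.9 CPM in samples 2 and 4. These 2 libraries also stood apart in the replication genes, so thymic counts are given with and without them. Of the thymic samples, WT 3 and 5 and CD25 KO 4 had Xist RNA and nearly no Y-linked counts, and the other 7 had Y-linked counts, whereas all 8 splenic samples had Xist RNA. Sex thus changed in part with tissue, and thymic CD25 KO samples 2 and 4 differed from each other in it. The labelled cell type had its markers in every group, the summed level of 9 Treg markers being 3675.1 to 4888.36 CPM. Foxp3 was lower in CD25 KO than in WT Tregs. It was at 270.0 to 335.6 against 399.7 to 577.9 CPM in the thymus, and 203.7 to 239.5 against 322.1 to 345.4 in the spleen. At FDR < 0.01 in edgeR's quasi-likelihood test, 4 of the 9 fell and 0 rose in the thymus, where 2.99% of all genes fell. In the spleen 4 rose and 3 fell, where 5.90% and 3.55% of all genes did. Some 22 genes outside chromosome Y with a mean thymic count above 300, such as Ppp1ca (2615.2), Srsf1 (694.2) and the mitotic kinesin Kif11 (613.9), were listed at 0 in all 8 splenic samples, and no gene was so the other way round. None of the 39 members was among them, and the part of such rows in the comparison of tissues was not tested. These 3 genes were named after their values were seen.

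The levels of the members in WT Tregs spanned a wide range. Divided by exon length, the highest was Pcna, the sliding clamp that holds polymerases on DNA, with a mean of 51.5 CPM per kb in thymic and 41.1 in splenic WT Tregs. The MCM helicase subunits ran from 12.5 (Mcm2) to 29.2 CPM per kb (Mcm6) in the thymus and from 9.03 (Mcm2) to 26.6 (Mcm6) in the spleen, with Mcm6 next after Pcna in both. Rpa1, of the single-strand binding protein, was at 21.2 and 24.3, and Gins4, of the GINS complex, at 15.7 and 16.5. The lowest were Gins2 in the thymus (1.08 CPM per kb) and Mcm10, which helps to start the helicase, in the spleen (0.331). Gins2, Chaf1a and Fen1 share 67.3%, 52.5% and 84.2% of their exonic bases with other genes, and the counting is not stated to use strand. The levels of these 3 genes and their differences between groups given below are therefore uncertain, also where they enter counts of members. For the other members the shared part was at most 17.4%. Pcna has the pseudogenes Pcna-ps1 and Pcna-ps2, whose reads may be split from its own.

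**Figure D1:**
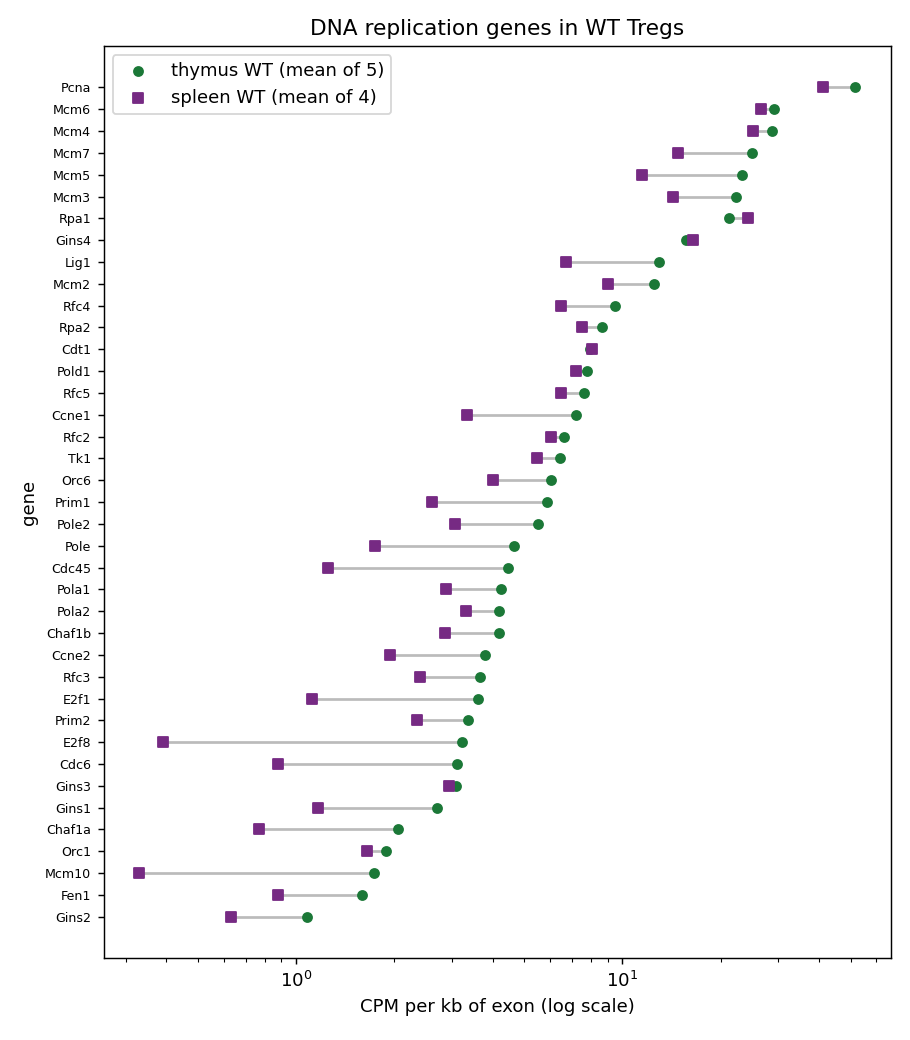
Mean level of each of the 39 genes in thymic WT (circles, 5 mice) and splenic WT Tregs (squares, 4 mice), in CPM per kb of exon on a log axis. Pcna was highest in both tissues, and the distance between circle and square was longest for E2f8 (3.23 and 0.392) and Mcm10 (1.73 and 0.331).

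Splenic WT Tregs had less RNA of many replication genes than thymic WT Tregs. By edgeR's quasi-likelihood test over 18686 genes, 21 of the 39 were lower in the spleen at FDR < 0.01 and none was higher, where 19.5% of all genes were lower and 40.4% differed in either direction. The median log2 difference, spleen minus thymus, was -0.59 over the members and 0.013 over all genes. E2f8, an E2F that is itself switched on at G1/S and represses E2F targets, was 8.23-fold lower in the spleen (log2 difference -3.04 ± 0.54 SE, FDR = 8.55e-05). Mcm10 was 5.20-fold lower (-2.38 ± 0.41, FDR = 6.2e-05), Cdc45 3.58-fold (-1.84 ± 0.35, FDR = 0.000169) and the loader Cdc6 3.54-fold (-1.82 ± 0.36, FDR = 0.000248). Cyclin E1 (Ccne1) had 15.3, 20.2, 21.2, 17.9 and 21.5 CPM in thymic WT samples 1 to 5 and 7.95, 8.72, 9.73 and 9.07 CPM in splenic WT samples 1 to 4. These ranges were far apart, and the difference of -1.12 ± 0.12 on the log2 scale had the lowest FDR of the members (1.81e-07). At the other end, Cdt1 (0.02 ± 0.16), Gins4 (0.07 ± 0.084) and Rpa1 (0.20 ± 0.091) had slightly positive differences that did not pass the test.

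In splenic Tregs, 8 of the 39 replication genes rose in CD25 KO against WT mice and none fell at FDR < 0.01, where 5.90% of 17463 genes rose and 3.55% fell. The 8 were the helicase subunits Mcm3, Mcm4 and Mcm6, the helicase starter Mcm10, the polymerase α catalytic subunit Pola1, the single-strand binding subunit Rpa2, the ligase Lig1 and E2f8. Their fold differences were 1.18 to 1.41 for 6 of them, with 1.72 for Mcm10 and 2.48 for E2f8. The median log2 fold change was 0.18 over the 39 genes and -0.006 over all genes, and 32 of the 39 were above 0. In 17 members every CD25 KO sample lay above every WT sample, against 11.2% of all genes, and in no member did every CD25 KO sample lie below. With all 18 samples in the fit, sharing an estimate of the spread, none of the 8 passed. With a single sample left out, 3 members passed without WT sample 1 or 2, 4 without WT sample 3 or 4 or CD25 KO sample 2 or 3, 6 without CD25 KO sample 4 and 8 without CD25 KO sample 1. The shares of all genes in these smaller fits are not given here, so the lower counts cannot be read as particular to the members.

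Of the origin licensing genes (Orc1, Orc6, Cdc6 and Cdt1) none passed in the spleen. Cdc6, the ATPase that loads the helicase, had 3.57, 4.69, 4.71 and 5.48 CPM in WT samples 1 to 4 and 6.85, 6.49, 7.02 and 5.48 CPM in CD25 KO samples 1 to 4. The CD25 KO samples were higher except for sample 4, which equalled the highest WT sample to the digits shown (log2 fold change 0.49 ± 0.14, FDR = 0.0279). Mcm6 had the clearest change of the helicase subunits. It was at 123.9, 129.8, 120.9 and 122.7 CPM in WT and at 155.7, 201.9, 174.8 and 169.8 CPM in CD25 KO samples, so the groups were well apart (0.50 ± 0.067, FDR = 9.4e-05). Mcm2, a common marker of cycling cells, was at 59.7, 65.4, 65 and 61.1 CPM in WT and 69.2, 75.8, 67.2 and 65.7 CPM in CD25 KO samples. Its groups were only just separate and the change of 0.15 ± 0.058 did not pass (FDR = 0.0956). Mcm3 (0.24 ± 0.053) and Mcm4 (0.25 ± 0.057) rose, Mcm5 gave 0.22 ± 0.071 (FDR = 0.0402), and Mcm7 alone of the 6 was below 0 (-0.04 ± 0.054).

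Among the genes that activate the helicase, Mcm10 was at 2.21, 2.38, 2.49 and 3.11 CPM in splenic WT and 3.65, 4.33, 5.73 and 3.86 CPM in CD25 KO samples. All CD25 KO samples were higher (0.78 ± 0.18, FDR = 0.00575). The GINS subunits Gins1 (0.68 ± 0.19, FDR = 0.0234) and Gins2 (0.36 ± 0.17) and Cdc45 (0.41 ± 0.15) did not pass, and Gins4 was at -0.01 ± 0.071. Pola1, which starts each new strand together with primase, had 26.4, 25.8, 22.5 and 26.8 CPM in WT and 27.8, 32.6, 33.8 and 34.7 CPM in CD25 KO samples. No sample overlapped, although CD25 KO sample 1 was near the WT range (0.35 ± 0.08, FDR = 0.0066). The primase subunit Prim1 was at 9.73, 9.93, 10 and 10.5 CPM in WT and 9.28, 11.4, 13 and 11.4 CPM in CD25 KO samples, with overlap (0.17 ± 0.10, FDR = 0.303). The other polymerase genes ran from -0.16 (Prim2) to 0.09 (Pole2), none of them past the test, and the leading-strand polymerase Pole was at 0.01 ± 0.07.

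The clamp and its loader did not pass the test in the spleen. Pcna had 93.3, 94.1, 107.7 and 99.8 CPM in WT and 98.3, 123.6, 99.8 and 124.9 CPM in CD25 KO samples. CD25 KO samples 2 and 4 were above all WT samples and the other two within their range (0.18 ± 0.079, FDR = 0.139). Rfc3, a loader subunit, was at 8.84, 8.06, 8.7 and 8.99 CPM in WT and 10.2, 11.7, 10.1 and 9.82 CPM in CD25 KO samples, apart but short of the threshold (0.28 ± 0.097, FDR = 0.0629). Rpa1 and Rpa2, the larger subunits of the single-strand binding protein RPA, were higher in every CD25 KO sample, whereas the small subunit Rpa3, which is not among the 39, overlapped between the groups (0.11 ± 0.11, FDR = 0.538). Rpa2 was at 22.4, 21, 24.6 and 21.6 CPM in WT and 30, 32.1, 27 and 27.8 CPM in CD25 KO samples (0.38 ± 0.075, FDR = 0.00209). Rpa1 was at 132.1, 135.4, 137.8 and 136.5 CPM in WT and 146.8, 152.6, 148.6 and 153.5 CPM in CD25 KO samples, a narrow gap (0.15 ± 0.045, FDR = 0.0286).

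Lig1, the ligase of Okazaki fragments, had 25.8, 29.7, 30.2 and 29 CPM in splenic WT and 34.1, 36.6, 40.4 and 34.2 CPM in CD25 KO samples. All CD25 KO samples were higher (0.34 ± 0.071, FDR = 0.00341). Fen1, the flap nuclease that acts before the ligase, was at 2.25, 2.05, 2.23 and 1.97 CPM in WT and 3.04, 3.07, 2.62 and 3.13 CPM in CD25 KO samples, with no overlap but a wide error (0.48 ± 0.16, FDR = 0.0444). Chaf1a, the large subunit of the histone chaperone CAF-1, was at 6.9, 7, 6.6 and 6.82 CPM in WT and 10.2, 8.33, 8.39 and 9.15 CPM in CD25 KO samples, again apart (0.40 ± 0.10, FDR = 0.0139). Among the genes of G1/S control, E2f8 was at 1.9, 2.05, 2.06 and 2.52 CPM in WT and 4, 4.83, 6.91 and 5.41 CPM in CD25 KO samples. This was the largest change of the 39 (1.31 ± 0.18, FDR = 0.000118). Ccne1 had the lowest value (-0.20 ± 0.12, FDR = 0.261), with 7.27, 6.49, 8.88 and 8.14 CPM in CD25 KO samples, and the thymidine salvage kinase Tk1 was also below 0 (-0.11 ± 0.095).

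**Figure D2:**
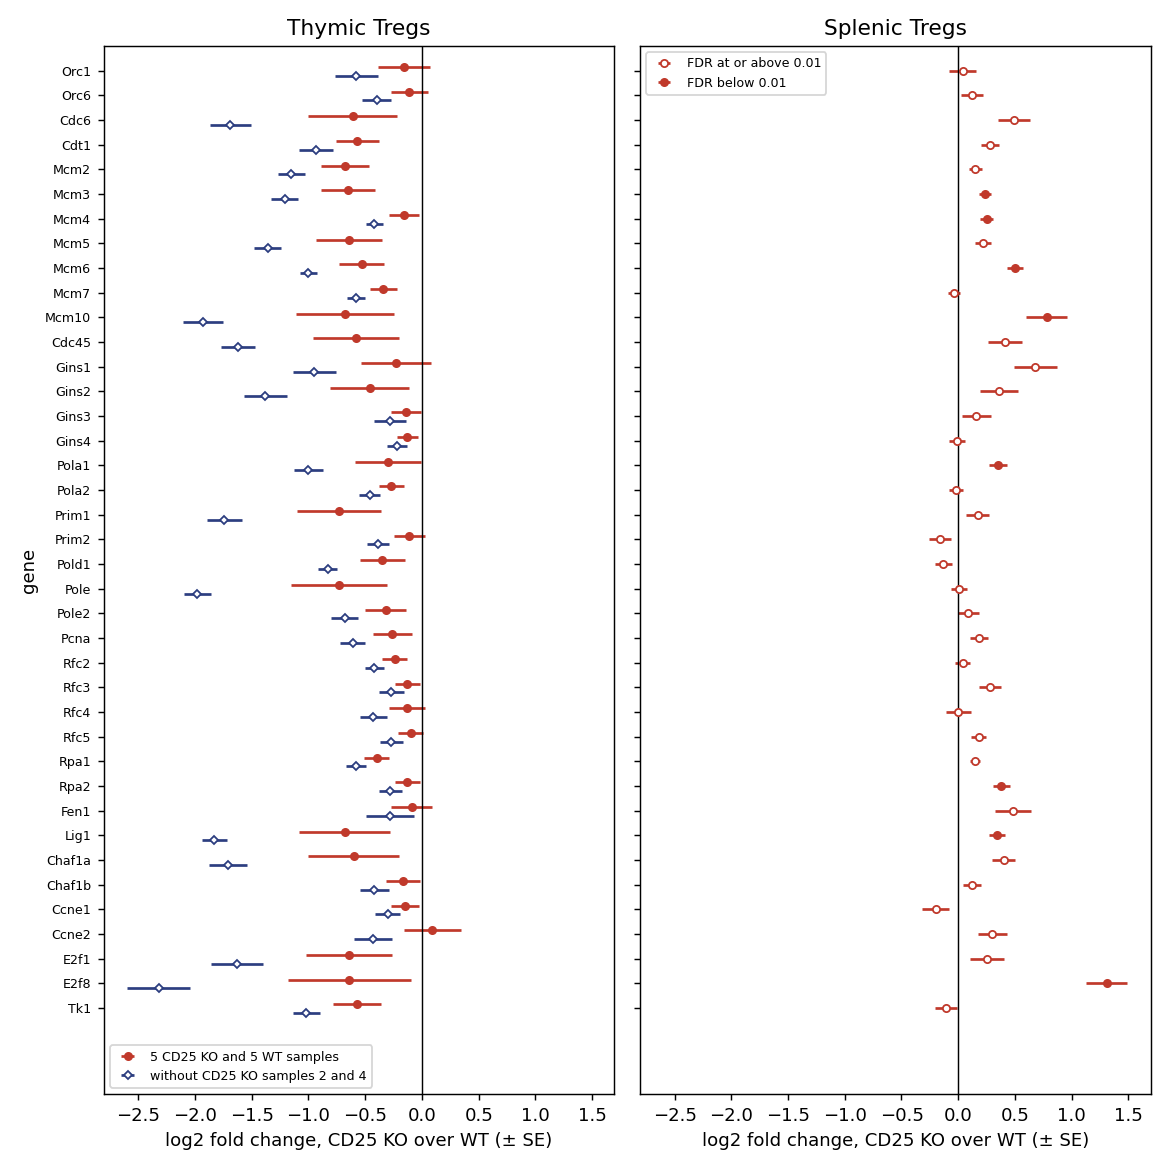
Log2 fold change, CD25 KO over WT, of each gene with its standard error in thymic (left) and splenic Tregs (right). In the thymus, circles are the fit of all 10 samples and diamonds the fit without CD25 KO samples 2 and 4, and in the spleen filled circles have FDR < 0.01. The splenic values lay between -0.20 and 1.31, and 38 of the 39 thymic circles and all 39 diamonds lay below 0.

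In thymic Tregs, no replication gene passed FDR < 0.01 in either direction over 5 CD25 KO and 5 WT samples, where 2.99% of 16986 genes fell and 3.17% rose. At an unadjusted p under 0.05, 10 of the 39 were lower, against 18.5% of all genes, and none was higher. DESeq2 called 1 lower, Rpa1, where it called 1240 of 17219 genes lower. The log2 fold change was below 0 in 38 of the 39, the exception being cyclin E2 (Ccne2, 0.09 ± 0.25). The median was -0.32, with -0.002 over all genes. The spread among the CD25 KO samples was large. The highest CD25 KO sample was a median of 2.16 times the lowest over the members, and 9.37 times for E2f8, while the same ratio had a median of 1.32 in thymic WT, 1.19 in splenic CD25 KO and 1.17 in splenic WT Tregs.

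This spread had the same form in nearly all members. Samples 2 and 4 were the 2 highest CD25 KO samples in 38 of the 39 genes, Gins4 being the exception. In 34 genes both were at or above the lowest WT sample, and in 31 genes samples 1, 3 and 5 were below every WT sample. The mean of log2 CPM over the 39 genes was 4.56, 4.65, 4.84, 4.51 and 4.79 in WT samples 1 to 5, and 3.78, 4.80, 3.86, 4.75 and 3.62 in CD25 KO samples 1 to 5. CD25 KO samples 2 and 4 were thus inside the WT range and the other three below the whole of it. The CD25 KO mean was 4.16 ± 0.57 (SD, n = 5) and the WT mean 4.67 ± 0.14 (SD, n = 5), a difference of -0.51, or -0.92 without CD25 KO samples 2 and 4. In splenic Tregs the 4 CD25 KO samples lay at 4.08 to 4.20 and the 4 WT samples at 3.87 to 3.95, a difference of 0.22. With the median level over the members in each sample in place of the mean, the splenic difference was 0.01. Such a median follows only the genes in the middle of the range of levels. The median splenic log2 fold change over the 39 members was 0.18, with 32 above 0.

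**Figure D3:**
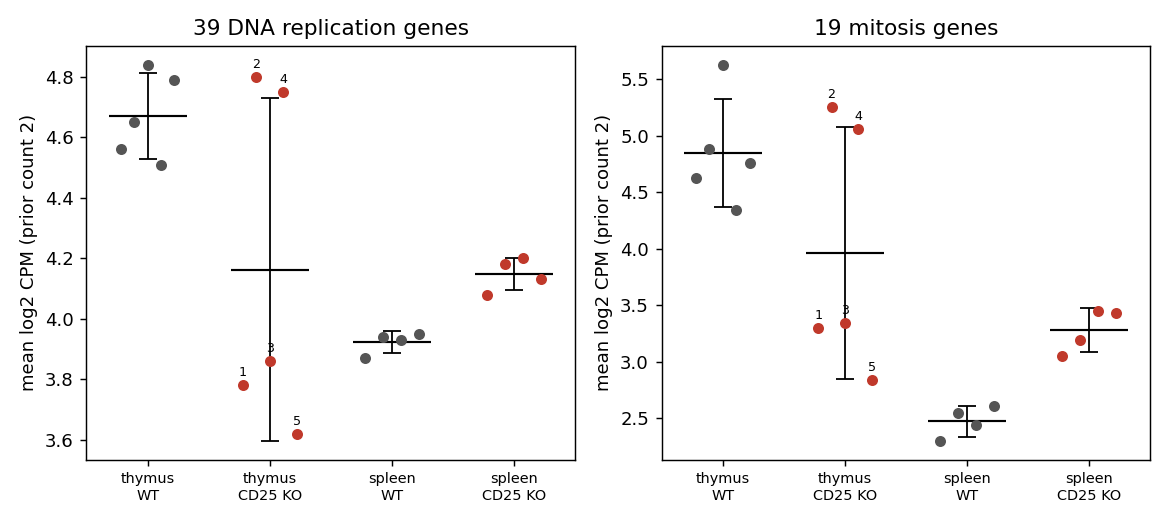
Mean log2 CPM by sample of the 39 replication genes (left) and of 19 mitosis genes (right), with the group mean and SD and the sample numbers of the thymic CD25 KO group. Thymic CD25 KO samples 2 and 4 lay within the range of thymic WT (4.51 to 4.84, left) and samples 1, 3 and 5 between 3.62 and 3.86.

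Without thymic CD25 KO samples 2 and 4, 26 of the 39 fell at FDR < 0.01 and none rose, where 7.07% of 17433 genes were lower. The median log2 fold change was then -0.68. These samples were set aside after the values of the members had been seen, so this count describes the 3 samples that are left and is no test of the members. Among samples with Y-linked counts, which leaves out CD25 KO sample 4, no member passed. Without sample 2 as well, 20 members were lower, against 3.80% of all genes. The summed level of 8 immature thymocyte markers, 1 of them under 1 CPM in every thymic sample and none at 0 throughout, was 66.6 and 81.4 CPM in samples 2 and 4, 59.5 to 125.02 CPM over the thymic CD25 KO and 47.7 to 208.56 CPM over the WT group.

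By role, the thymic values of the named genes showed the same split. Cdc6 was at 13.1, 16.6, 19.9, 13 and 19 CPM in WT samples 1 to 5 and at 4.35, 17.6, 5.66, 19.7 and 5.04 CPM in CD25 KO samples 1 to 5 (log2 fold change -0.61 ± 0.39, FDR = 0.275). Its CD25 KO samples 2 and 4 reached the WT range and the others were under it. Mcm2 was the only member in which every CD25 KO sample lay below every WT sample, against 9.17% of all genes. It was at 80.4, 85.7, 94.5, 78.9 and 95.9 CPM in WT and 40.2, 74.9, 45.9, 75.9 and 30.9 CPM in CD25 KO samples (-0.68 ± 0.21, FDR = 0.0383). Mcm6 had 127.1, 139.0, 140.5, 127.7 and 147.5 CPM in WT and 64.5, 139.0, 70.1, 124.8 and 68.4 CPM in CD25 KO samples, where sample 4 was just under the WT range (-0.53 ± 0.20, FDR = 0.0774). Mcm10, with the same split, was at 12.4, 13.1, 15.5, 10.9 and 14.5 CPM in WT and 2.65, 15, 4.41, 15 and 3.31 CPM in CD25 KO samples (-0.68 ± 0.43, FDR = 0.264).

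Prim1 had the lowest thymic log2 fold change of the members (-0.73 ± 0.37, FDR = 0.164), with 19.3, 21.1, 27.8, 19.9 and 25.7 CPM in WT and 6.55, 23.9, 7.57, 22.9 and 6.15 CPM in CD25 KO samples. Pola1 was at 37.8, 30.6, 45, 35.9 and 37.9 CPM in WT and 18.6, 50.6, 20.9, 43.2 and 16.5 CPM in CD25 KO samples, and its sample 2 exceeded every WT sample (-0.30 ± 0.29, FDR = 0.468). The clamp genes were less spread. Pcna was at 117.4, 128.6, 142.4, 96.7 and 133.2 CPM in WT and 77.8, 136.7, 82.3, 129.95 and 82.3 CPM in CD25 KO samples (-0.26 ± 0.17, FDR = 0.281). Rfc3 had the narrowest spread among CD25 KO samples, though samples 1, 3 and 5 were still under the WT range, at 11.7, 13.7, 14.2, 11.7 and 14.9 CPM in WT and 11.3, 12.9, 10.7, 13.9 and 10.9 CPM in CD25 KO samples (-0.13 ± 0.11, FDR = 0.378).

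Rpa1 was at 107.6, 125.1, 134.0, 101.4 and 122.4 CPM in thymic WT and 78.8, 109.7, 75.6, 96.7 and 81.4 CPM in CD25 KO samples. Only sample 2 reached the WT range, and the FDR was the lowest of the members (-0.40 ± 0.11, FDR = 0.0231). Its partner Rpa2 overlapped more, with 25.1, 26.2, 28.9, 22.2 and 27.2 CPM in WT and 18.6, 27.6, 23.3, 25.8 and 22 CPM in CD25 KO samples (-0.13 ± 0.11, FDR = 0.417). Lig1 showed a wide gap within the CD25 KO group, at 17.9, 63.4, 15.9, 59.7 and 12.3 CPM against 53, 51.3, 55.4, 54.3 and 61.2 CPM in WT (-0.68 ± 0.40, FDR = 0.24). Chaf1a was at 14.6, 19.6, 21.7, 15 and 19.9 CPM in WT and 5.7, 21.9, 6.37, 20.5 and 4.46 CPM in CD25 KO samples (-0.60 ± 0.40, FDR = 0.293). Fen1, with 3.83, 3.53, 4.81, 2.88 and 4.27 CPM in WT and 4, 4.1, 2.72, 4.37 and 2.73 CPM in CD25 KO samples, overlapped with WT except for samples 3 and 5 (-0.09 ± 0.18, FDR = 0.763). E2f8 was at 14.5, 16.6, 26, 11.6 and 19.1 CPM in WT and 3.35, 23.1, 4.68, 21.4 and 2.47 CPM in CD25 KO samples (-0.64 ± 0.54, FDR = 0.41), the widest spread of the members. Ccne1 was at 15.2, 20.3, 15.7, 18.9 and 15.5 CPM in CD25 KO samples and differed little from WT (-0.15 ± 0.12, FDR = 0.376).

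**Figure D4:**
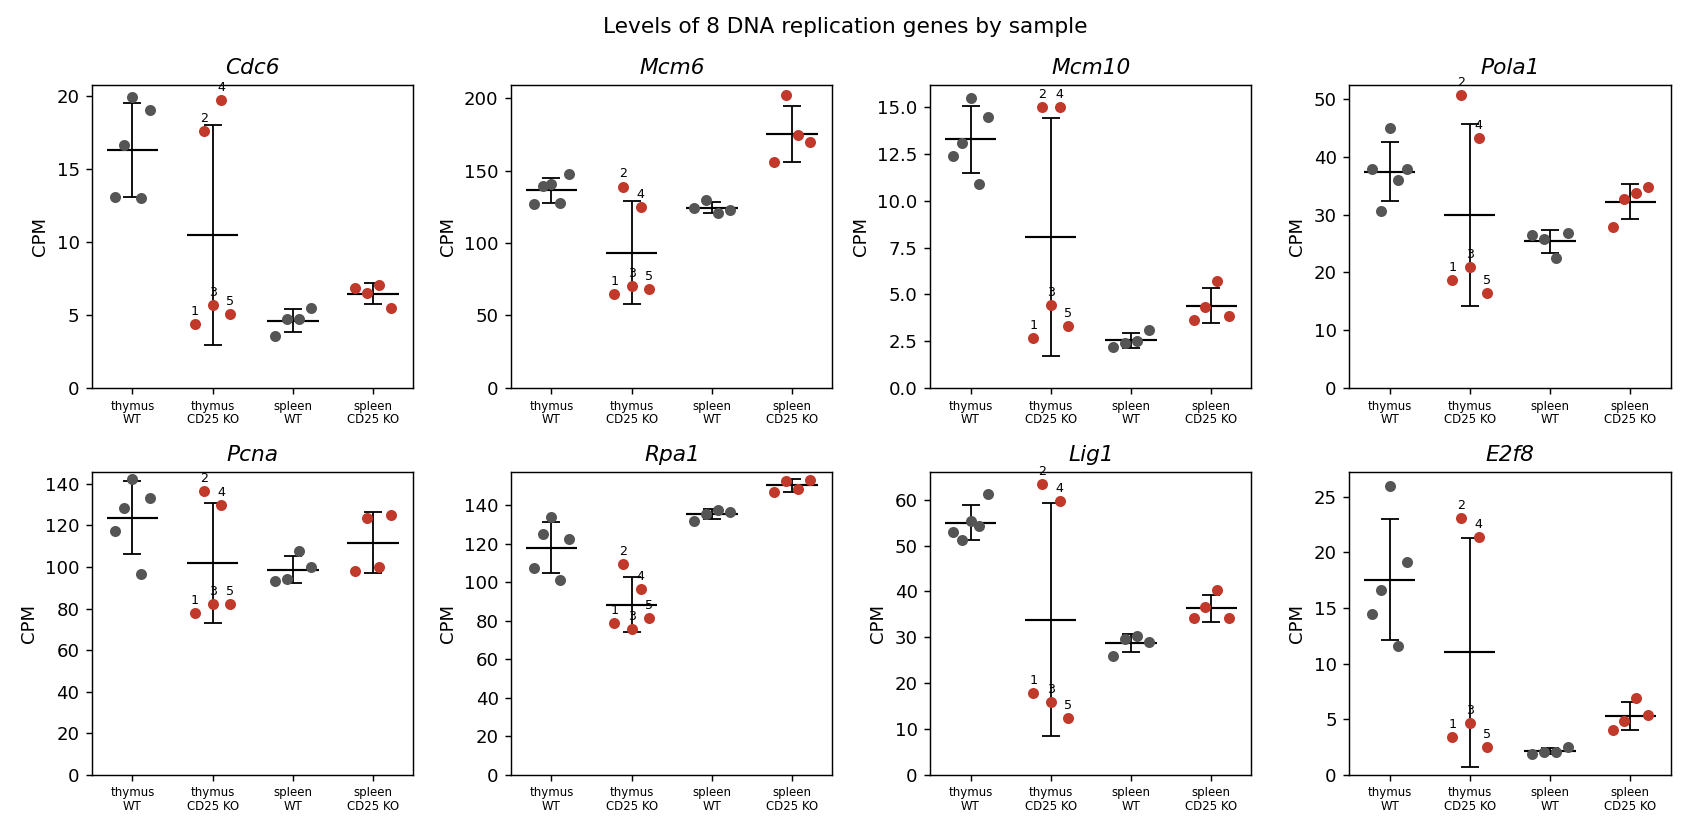
CPM of 8 of the genes by sample, with group mean and SD and the numbers of the thymic CD25 KO samples. In Lig1, thymic CD25 KO samples 2 and 4 were at 63.4 and 59.7 CPM and samples 1, 3 and 5 at 12.3 to 17.9 CPM, whereas the 4 splenic CD25 KO samples of Mcm6 (155.7 to 201.9 CPM) were all above splenic WT (120.9 to 129.8 CPM).

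**Figure D5:**
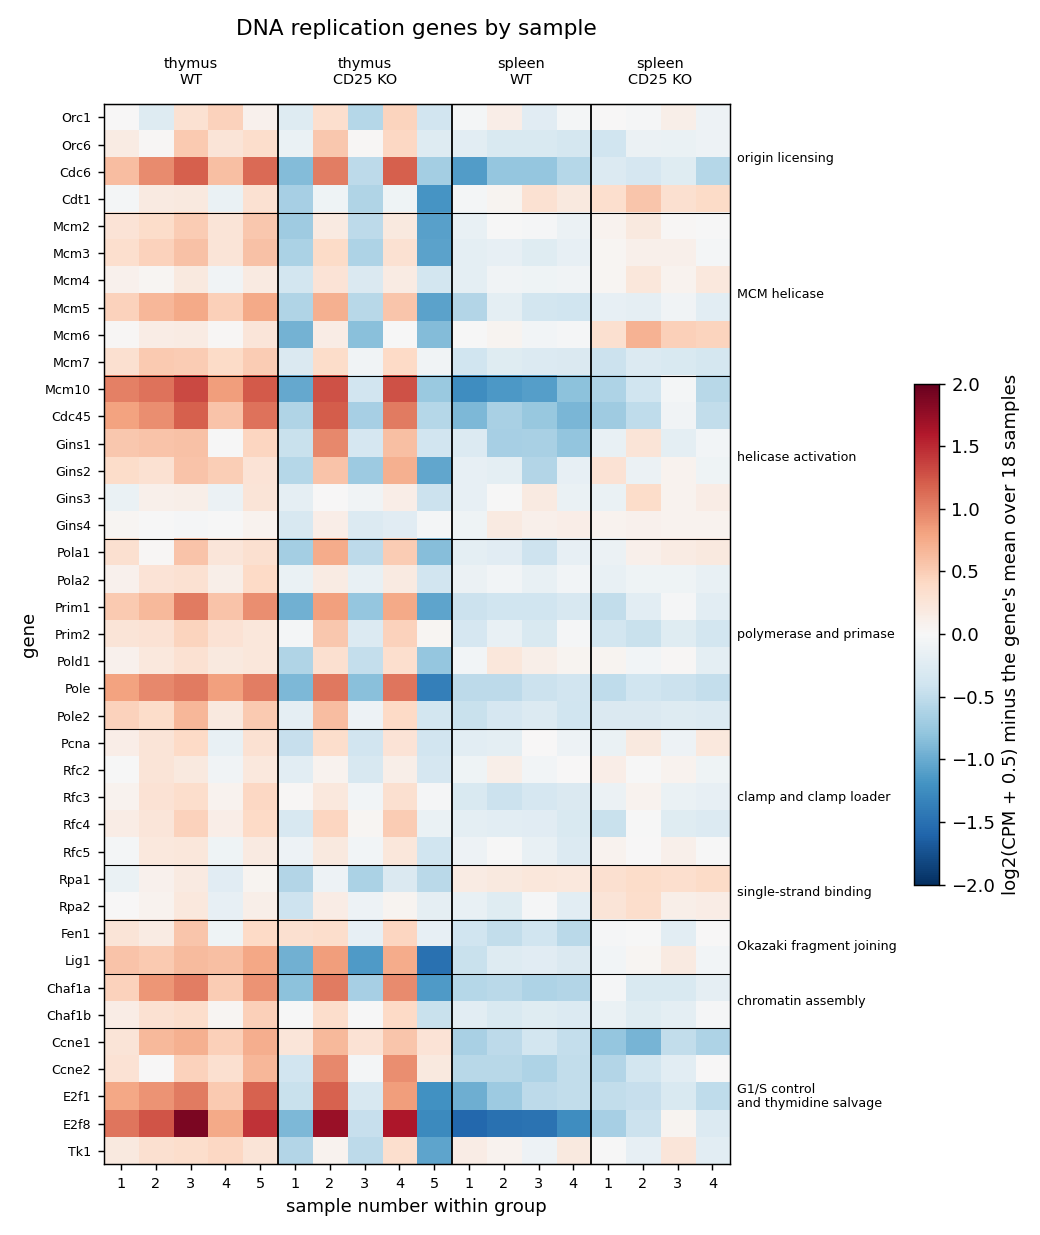
Log2(CPM + 0.5) of the 39 genes minus each gene's mean over the 18 samples, grouped by role, with 1 column per sample. Samples 1, 3 and 5 of the thymic CD25 KO group are blue in most rows, samples 2 and 4 resemble thymic WT, and the splenic samples within a group differ little.

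The log2 fold change of the members, CD25 KO over WT, was compared between the tissues in a single fit of all 18 samples. At FDR < 0.01, 2 members had a higher log2 fold change in the spleen than in the thymus, where 4.50% of 18686 genes did, and none had a lower one, where 2.49% did. Mcm6 differed by 1.04 ± 0.24 (FDR = 0.00648), with a mean of 93.4 ± 35.6 CPM in CD25 KO and 136 ± 8.81 in WT Tregs of the thymus (SD, n = 5), and 176 ± 19.4 and 124 ± 3.85 in the spleen (SD, n = 4). Rpa1 differed by 0.57 ± 0.13 (FDR = 0.00565), with 88.4 ± 14.4 CPM in CD25 KO and 118 ± 13.3 in WT Tregs of the thymus, and 150 ± 3.18 and 135 ± 2.48 in the spleen. The difference was above 0 in 37 of the 39 genes, with a median of 0.53 and -0.007 over all genes. E2f8 had the largest difference (1.97 ± 0.71) without passing (FDR = 0.0606). Without thymic CD25 KO samples 2 and 4, 28 members passed, against 8.10% of all genes, under the same limit on their choice. No member passed without thymic WT sample 2, 3 or 5, thymic CD25 KO sample 1 or 3, any one of the splenic WT samples or splenic CD25 KO sample 2, 3 or 4. Without splenic CD25 KO sample 1 only Mcm6 passed, and 7 and 4 members passed without thymic CD25 KO samples 2 and 4 respectively. For these fits, too, the shares of all genes are not given here. After removal of the trend with GC content Mcm6 alone passed (0.99, FDR = 0.00897).

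Other genes of replication were followed as lists. Of 35 further replication genes, such as the other origin subunits and the small polymerase subunits, 34 were tested in the spleen. There 2 rose, Clspn (0.82 ± 0.11), which relays the replication checkpoint, and Uhrf1 (0.57 ± 0.079), which brings the maintenance methylase to new DNA, and none fell, a share near the 5.90% of all genes that rose there. In the thymus 1 of the 35 rose, the origin subunit Orc3 (0.35 ± 0.067), where 3.17% of all genes rose, and none fell. Without thymic CD25 KO samples 2 and 4, 17 of them fell and 1 rose, with these samples set aside after their values had been seen, as for the lists that follow. In that fit 7.07% of 17433 genes fell, and the share that rose is not given here. Of 17 genes of the RB and E2F network, cyclin A2 (Ccna2, 0.94 ± 0.14), E2f7 (0.72 ± 0.16) and Rbl1 (0.28 ± 0.055) rose in the spleen. In the thymus, Rb1 (0.77 ± 0.13), the retinoblastoma protein, and the cyclin-dependent kinase inhibitor Cdkn1b (0.28 ± 0.058) rose, both of which restrain entry into S phase, and none fell. Both were above every WT sample in CD25 KO samples 2 and 4 as well, at 310.87 and 282.29 CPM for Rb1 and 326.64 and 321.35 CPM for Cdkn1b. Their part in the levels of the replication genes was not tested. Without samples 2 and 4, 1 gene of this list rose and 5 fell, where 7.07% of all genes fell. Of 10 genes of deoxynucleotide supply, 4 rose in the spleen, led by the ribonucleotide reductase subunit Rrm2 (1.00 ± 0.082, FDR = 9.17e-07), and 1 fell, the deaminase Dctd (-0.71 ± 0.14). None of the 10 passed in the thymus. At an unadjusted p under 0.05, 2 were lower, against 18.5% of all genes, and 1 was higher, against 3290 of 16986 genes. DESeq2 called 1, where it called 1490 of 17219 genes higher and 1240 lower. Without samples 2 and 4, 5 fell and none rose, where 7.07% of all genes fell.

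Among the mitosis genes, of 19 tested in the spleen, 16 rose, against 5.90% of all genes, and none fell. The median log2 fold change was 0.83 against 0.18 for the replication genes. Those that passed ran from 0.58 ± 0.14 (Plk1) to 1.27 ± 0.17 (Hmmr). In the thymus all 20 were below 0 and none passed, none had an unadjusted p under 0.05, and DESeq2 called none. Without samples 2 and 4, 19 fell and none rose, where 7.07% of all genes fell. Their mean log2 CPM in thymic CD25 KO samples 1 to 5 was 3.30, 5.26, 3.34, 5.06 and 2.84, the same order of samples 2 and 4 over the rest as in the replication genes. The summed level of 6 B cell markers, 3 of them under 1 CPM in every splenic sample, was 20.8 to 22.38 CPM in splenic WT and 20.1 to 23.99 in splenic CD25 KO Tregs, where of 3 tested Pax5 (1.04 ± 0.22) rose, Cd79b was at 0.02 and Cd79a, lower in every CD25 KO sample, at -0.45 ± 0.14 (FDR = 0.032). That of 6 myeloid markers, also with 3 under 1 CPM, was 11.1 to 18.05 and 16.3 to 22.39 CPM, where of 3 tested Lyz2 (1.03 ± 0.19) rose, and Csf1r (-0.24, FDR = 0.41) and Adgre1 (-0.82 ± 0.37, FDR = 0.151) were below 0. That of 5 erythroid markers was 5.44 to 6.98 and 4.73 to 7.1 CPM. No B cell or myeloid marker was at 0 throughout, and the part of these cells in the splenic differences was not tested.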

How the data were processed

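RNA-seq was performed by the authors on Tregs sorted from thymus and spleen, with ribosomal RNA depleted and 75 bp reads in pairs. The reads were aligned with STAR (2.5.0b) to GRCm38 and counted per gene with featureCounts (1.5.0), and the deposited values are raw counts per gene, not normalized. Whether the counting used strand is not given in the sources used here. Totals were 17239774 to 32639570 counts per sample.

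Members and gene lists were chosen with earlier results of these data known. Genes with low counts were removed by edgeR's filterByExpr, libraries were scaled by TMM, and groups were compared by the quasi-likelihood test of edgeR 4.0.16 (R 4.3.3) within each tissue, with Benjamini-Hochberg adjustment over all genes tested and FDR < 0.01 as the threshold. The comparison of tissues and the difference between tissues of the CD25 KO over WT change were fitted on all 18 samples. Fold changes are on the log2 scale with their standard errors, and CPM used the TMM-scaled totals. Mean log2 CPM over the members used a prior count of 2. Values in every sample are given, in each role group, for the gene with the largest log2 fold change in either direction in each tissue, and for Mcm2, Pcna and Ccne1. Of the other lists, at most the 2 largest and 2 smallest changes that passed are named. DESeq2 1.42.0, other scalings, filters and thresholds, removal of the GC trend, a replicate block and leaving out samples were tried as alternatives. Fits without thymic CD25 KO samples 2 and 4, and those by Xist and Y-linked counts, were chosen after the values were seen. The code was tested on simulated data. Floors of 3 counts cover counting error only.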

Additional observations from a re-analysis of the deposited data

Results flagged for a closer look

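In 160 groups of member genes (each gene in each of the 4 groups plus the member mean), the sample at an end of its group was tested for a gap to its neighbour that is large for the range of the group. Chance gives about 1 in 20, and 4 were found. Orc6, an origin subunit, was lowest in splenic CD25 KO sample 1, with 9.21 CPM against 11.1 in the nearest sample, a gap of 0.842 of the range. Mcm4 was lowest in splenic WT sample 1, with 84.5 CPM against 91.5, a gap of 0.88 of the range, and Mcm4 was also among the genes that rose in splenic CD25 KO Tregs. Gins2 was lowest in splenic WT sample 3, with 1.97 CPM against 2.75, a gap of 0.905 of the range. The primase subunit Prim2 was highest in thymic WT sample 3, with 22.1 CPM against 19.7, a gap of 0.75 of the range.

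The log2 fold change, CD25 KO over WT, differed between the tissues by the interaction term of edgeR's quasi-likelihood fit in 2 of the 39 members, a share near the 4.50% of all genes that differed in this direction. It was higher in the spleen than in the thymus by 1.04 for Mcm6 (FDR = 0.00648) and by 0.57 for Rpa1 (FDR = 0.00565). Both genes were lower in the mean of the thymic and higher in the mean of the splenic CD25 KO samples.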

How the results depend on the processing

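The number of thymic members past the threshold, 0 in the report, was 3 at FDR < 0.05, 1 with DESeq2, 3 with all 18 samples in the fit, 26 without CD25 KO samples 2 and 4 (27 by DESeq2), 20 among samples with Y-linked counts without CD25 KO sample 2, and 0 to 1 with a single sample left out (Rpa1, without CD25 KO sample 2). All of these were lower. Of all genes, 1858 of 16986 were lower at FDR < 0.05, 1240 of 17219 with DESeq2 and 1585 of 18686 with all 18 samples. The splenic number, 8, was 15 at FDR < 0.05, 0 with all 18 samples in the fit and 3 to 8 with a single sample left out. Of all genes, 1774 of 17463 were higher at FDR < 0.05 and 424 of 18686 with all 18 samples. The number for the difference between tissues, 2, was 7 at FDR < 0.05, 5 with DESeq2, 1 with the GC trend removed, 28 without thymic CD25 KO samples 2 and 4 (32 by DESeq2) and 0 to 7 with a single sample left out. Of all genes, 1835 of 18686 differed in this direction at FDR < 0.05, 1383 of 17254 with DESeq2 and 674 of 18686 with the GC trend removed. The number between WT tissues, 21, was 18 to 30 over its alternatives. For fits with a single sample left out, no share of all genes is given here. The splenic difference in the member mean, 0.22, was 0.01 with the median level over members in each sample, which follows only genes of middle level. The median splenic log2 fold change of the members was 0.18. The thymic difference in the member mean, -0.51, was -0.92 without CD25 KO samples 2 and 4 and -0.36 to -0.67 in the other alternatives run. Over 14 alternatives in the spleen, Mcm6 and E2f8 kept their call in 13, Rpa2 in 12, Lig1 in 10, Mcm10 in 8, Mcm3 and Mcm4 in 6 and Pola1 in 4. No direction turned for a gene that passed, and the cause of these shifts was not tested.

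With the replicate block, 0 members passed in the thymus, also with the GC trend removed, and 51 genes rose and 158 fell among all genes, against 539 and 508 without it. Deviations of log2 CPM from the group mean had correlations of -0.182 to 0.106 between same-numbered thymic WT and CD25 KO samples. The numbers were therefore not taken as pairs. No paired analysis was possible between other groups, because their numbers mark no shared animal. Upper-quartile scaling gave 808 genes up and 440 down in the thymus, and 616 and 669 for the difference between tissues against 840 and 465, which was 674 and 659 with the GC trend removed. Depth limits the low genes most, 3 counts being up to 0.174 CPM.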
